A study of Mus musculus with 9 samples.

Results

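This account follows 9 interferon response genes, Ifit1, Ifit3, Irf7, Isg15, Oasl2, Bst2, Usp18, Ifitm3 and B2m, through whole-brain RNA-seq of a mouse model of diabetic neuropathic pain (DNP). They were taken by gene name from 53465 genes in the read count and FPKM tables, each name matched 1 row, and all 9 passed the filter on low counts that left 18501 genes for testing. The mice were male C57BL/6 animals aged 7 weeks at the start, with 3 mice and 3 libraries in each of 3 groups. Control (CON) mice received saline vehicle. DNP mice were fed a 60% fat diet for 4 weeks, were injected with streptozotocin, a toxin of the insulin-producing beta cells, at 50 mg/kg daily for 7 days, reached a fasting glucose of at least 16.7 mmol/L and then received saline. Baclofen-treated (BAC) mice went through the same diet and streptozotocin course and then received baclofen, a GABA-B receptor agonist, once a day over 7 days at 8 mg/kg. Per the study's methods, both groups held only mice that also had lowered mechanical and thermal pain thresholds. The DNP and BAC groups thus share the diet, the toxin, the diabetes and this selection, and no group separates these from each other. The comparison of DNP with CON addresses what differs in the brain in the disease model, and that of BAC with DNP what differs with baclofen.

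Interferons are secreted proteins that cells release when they sense foreign or misplaced nucleic acids. Type I interferons bind the receptor pair Ifnar1 and Ifnar2, whose kinases phosphorylate transcription factors of the STAT family, Stat2 among them. With Irf9 these form a complex that binds the interferon-stimulated response element (ISRE) in the promoters of target genes, whereas interferon gamma acts through the gamma-activated site (GAS). In the brain, microglia, endothelial cells, astrocytes and neurons can all respond, and a low tonic signal keeps many of the targets detectable without infection.

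The promoters of the 9 genes were read for the core of the ISRE. The genes were taken by name and not by this element. The core searched was GAAANNGAAA on both strands, within 250 bases before to 50 bases after the RefSeq start, in the RefSeq promoter sequences of GRCm38.p6. Of 32851 promoters, 3.44% held it. Among the 9 genes, 8 had an entry (Usp18 had none), and 6 of the 8 held at least 1 match: B2m, Isg15, Ifitm3, Bst2, Ifit3 and Ifit1. Oasl2 and Irf7 had no match to these letters in this window. The stretches with the matches are given 5′ to 3′ on the strand of the gene, with the matches in capitals. Matches overlap in Isg15 (3 matches) and Bst2 (2 matches), and those of Ifit3 and Ifit1 lie on the opposite strand and so read as TTTC pairs.
B2m, chr2:122147538-122147567, plus strand: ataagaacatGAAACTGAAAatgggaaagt
Isg15, chr4:156200865-156200906, minus strand: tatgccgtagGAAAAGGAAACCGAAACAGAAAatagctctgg
Ifitm3, chr7:141010716-141010742, minus strand: GAAAAGGAAActtctgaGAAACCGAAA
Bst2, chr8:71537577-71537612, minus strand: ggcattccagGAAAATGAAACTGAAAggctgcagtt
Ifit3, chr19:34583363-34583426, plus strand: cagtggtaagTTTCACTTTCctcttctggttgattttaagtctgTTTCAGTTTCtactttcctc
Ifit1, chr19:34640775-34640823, plus strand: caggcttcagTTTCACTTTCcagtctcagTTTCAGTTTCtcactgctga
In Ifitm3 the pair of matches lies 2 to 28 bases after the RefSeq start, inside the first exon, and in the other 5 genes every match lies before the start. Of the promoters of 40 other interferon-stimulated genes with an entry, 20 of 56 (35.7%) held the core. The GAS core TTCNNNGAA, searched in the same way, was in 2 of the 8 promoters (Ifitm3 and Bst2) and in 8.30% of all promoters. A match is a description of letters, and binding was not measured.

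The 9 libraries held 13107382 to 16008129 counts. Although every label reads whole brain, markers of brain regions varied widely: the summed level of 10 cerebellar markers ran from 61.8 to 6074 CPM (read counts scaled to the library total by the trimmed mean of M values), and that of 10 brainstem and spinal cord markers was 352 in DNP 1, 464 in BAC 1 and 406 in BAC 3 against at most 28.8 in the other 6 libraries. Estimates without these 3 libraries are therefore given after the comparisons. In bulk tissue, fewer cells of a type and less RNA per cell cannot be told apart.

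Ranked per length, B2m was by far the most abundant of the 9 genes. With each count divided by the length of the merged exons and by the library total (FPKM scale), its median over the 9 libraries was 82.4, with a range of 58.8 to 96.7. Ifitm3 followed at 17.6 (8.34 to 21.5), Ifit3 at 6.77 (3.65 to 12.7) and Bst2 at 3.73 (2.95 to 5.61). The range of B2m lay clear of that of Ifitm3, and the range of Bst2 lay clear of that of Isg15, which had a median of 1.49 (0.625 to 2.17). All other neighbours in this order overlapped, including Ifit1 at 1.22, Oasl2 at 0.757, Irf7 at 0.566 and Usp18 at 0.542. The low end rests on few reads: Isg15 had 147 counts, Usp18 202 and Irf7 316 in all 9 libraries together, against 9069 for B2m.

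In DNP brains compared with CON brains, all 9 genes had a positive estimated log2 fold change, between 0.22 for Bst2 and 1.03 for Ifitm3, with a median of 0.43 against 0.01 over all genes tested. No member passed an adjusted p of 0.05 in edgeR's quasi-likelihood test, nor did any other gene (0% of those tested; 2067 genes had an unadjusted p under 0.05). Ifitm3 and B2m had an unadjusted p under 0.05 and were the 2 members whose DNP libraries all lay above all CON libraries. Over all genes, 5.71% had such a p with a higher level in DNP and 5.46% with a lower one, and 9.59% were without overlap in the higher direction and 8.63% in the lower. DESeq2, which the study used for its pairwise comparisons, was run here as an alternative. It called 1.85% of genes (342), and of the 9 members it called Ifitm3.

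**Figure D1:**
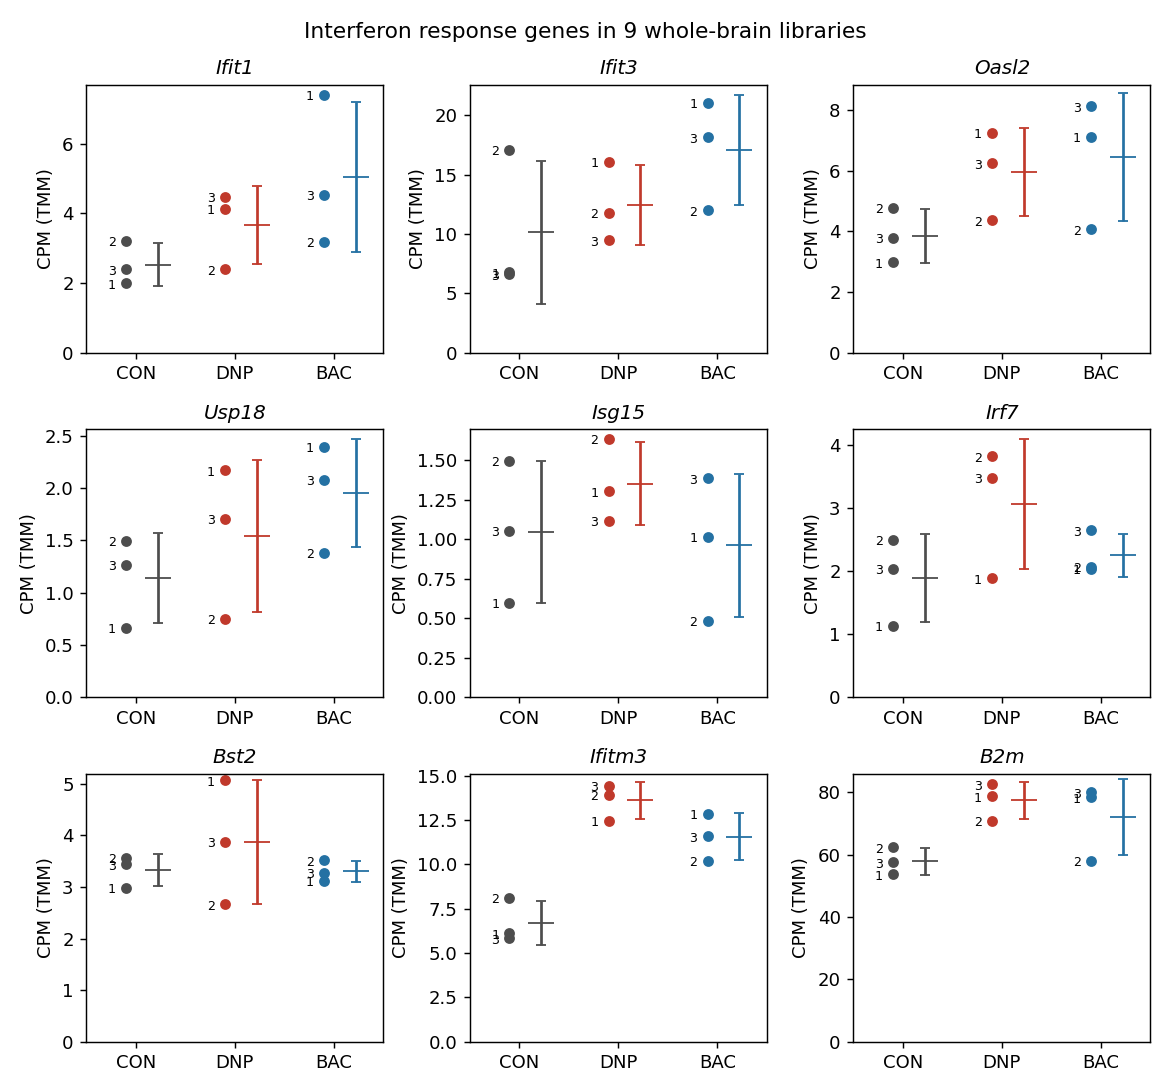
Level of each of the 9 genes in each library, in CPM scaled by the trimmed mean of M values (TMM). Points are mice labelled by replicate number, and the bars beside them give the mean and SD (n = 3 mice per group). The CON points of Ifitm3 all lie below the DNP and BAC points, from 5.83 to 8.13 against 10.2 to 14.5 CPM, whereas the groups overlap for most other genes.

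Ifitm3, an interferon-induced membrane protein that hinders the fusion of viruses with endosomes, showed the clearest separation. The gene lies on the minus strand of chromosome 7 (GRCm38, 141009586 to 141010770). Its level was 6.10, 8.13 and 5.83 CPM in the CON brains, 12.5, 13.9 and 14.5 in DNP brains, and 12.9, 10.2 and 11.6 in BAC. Every library of a diabetic mouse was thus above every CON library, while DNP and BAC overlapped. CON brains averaged 6.69 ± 1.25 CPM, whereas DNP brains averaged 13.6 ± 1.03 (mean ± SD over 3 mice). The log2 fold change was 1.03 (SE 0.19, 95% interval 0.58 to 1.47), with an unadjusted p of 5.82e-04 and an adjusted p of 0.294 in edgeR. DESeq2 gave 1.01 with an adjusted p of 8.79e-04. Ifitm3 shares 10.0% of its 50-base windows with Ifitm1, Ifitm2 and annotated pseudogenes, but none of its windows of the 150-base read length.

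Bst2, or tetherin, which holds budding virus particles at the cell surface, did not separate the groups. It lies on the minus strand of chromosome 8 (71534255 to 71537456), and its level was 2.98, 3.56 and 3.44 CPM in CON, 5.07, 2.66 and 3.88 in DNP, and 3.12, 3.52 and 3.27 in BAC. The highest and the lowest of the 9 values were both DNP libraries. DNP against CON gave a log2 fold change of 0.22 (SE 0.27, 95% interval -0.40 to 0.83, adjusted p = 0.814), and without DNP 1, the library with the highest value, it was -0.03.

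Ifit1 and Ifit3 encode tetratricopeptide proteins, of which Ifit1 binds viral RNA at its cap. Both genes lie on the plus strand of chromosome 19 (Ifit3 at 34583531 to 34588731, Ifit1 at 34640871 to 34650009). For Ifit1 the values were 1.99, 3.21 and 2.39 CPM in CON, 4.13, 2.39 and 4.47 in DNP, and 7.41, 3.18 and 4.53 in BAC. BAC 1 was the highest library, and DNP 2 and BAC 2 were within the CON range. For DNP against CON its log2 fold change was 0.53 (SE 0.39, adjusted p = 0.639). Ifit3 held 6.77, 17.1 and 6.60 CPM in CON, 16.1, 11.8 and 9.46 in DNP, and 21.1, 12.0 and 18.1 in BAC. CON 2 stood more than 10 CPM above the other CON libraries and above every DNP library. Ifit3 had a log2 fold change of 0.29 (SE 0.41, adjusted p = 0.839), and it was 0.89 without CON 2. Ifit3 is near-identical to its neighbour Ifit3b over 18.5% of its 150-base windows (51.2% of 50-base windows), so its counts are uncertain.

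Oasl2, an oligoadenylate synthetase-like protein of the double-stranded RNA response, held 2.98, 4.78 and 3.79 CPM in CON, 7.24, 4.37 and 6.24 in DNP, and 7.12, 4.07 and 8.12 in BAC. The gene lies on the plus strand of chromosome 5 (114896936 to 114912234). In each diabetic group replicate 2 was within the CON range and the other libraries were above it. DNP against CON gave 0.63 on the log2 scale (SE 0.33, 95% interval -0.13 to 1.38, adjusted p = 0.511).

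Isg15 encodes a ubiquitin-like protein that is attached to other proteins and also secreted, and Usp18 encodes the protease that removes it and that also damps type I receptor signalling. Isg15, on the minus strand of chromosome 4 (156199424 to 156200818), had 9, 21 and 15 counts in CON, 18, 24 and 17 in DNP, and 14, 7 and 22 in BAC. Usp18, on the plus strand of chromosome 6 (121245906 to 121270917), had 10, 21 and 18 counts in CON, 30, 11 and 26 in DNP, and 33, 20 and 33 in BAC. All 3 groups overlapped for both genes. The log2 fold changes of DNP against CON were 0.37 for Isg15 (95% interval -0.70 to 1.43, adjusted p = 0.821) and 0.43 for Usp18 (-0.64 to 1.51, adjusted p = 0.779), so that a 2-fold higher level of either gene in DNP lies inside the interval. Leaving out 1 library moved both estimates: that of Isg15 was 0.084 without CON 1 and 0.70 without CON 2, and that of Usp18 was 0.11 without DNP 1 and 0.75 without DNP 2.

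Irf7, the transcription factor that amplifies type I interferon production, had 17, 35 and 29 counts in CON, 26, 56 and 53 in DNP, and 28, 30 and 42 in BAC. DNP 2 and DNP 3 were the highest libraries and DNP 1 lay within the CON range. In DNP against CON the estimate was 0.70 (SE 0.38, 95% interval -0.17 to 1.57, adjusted p = 0.524). The gene lies on the minus strand of chromosome 7 (141262706 to 141266481) and overlaps Phrf1 on the other strand by 45 bases. The libraries were not strand-specific, and Phrf1 had 4692 counts against 316 for Irf7, so reads at that edge cannot be assigned to either gene.

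B2m is the light chain of the MHC class I molecules that present peptides to CD8 T cells. It lies on the plus strand of chromosome 2 (122147686 to 122153083), and Patl2 on the other strand, with 44 counts in all, spans the whole gene. Its level was 53.7, 62.3 and 57.5 CPM in CON, 78.7, 70.9 and 82.5 in DNP, and 78.3, 57.9 and 79.9 in BAC. All DNP libraries were above all CON libraries, and BAC 2 was the 1 library of a diabetic mouse at the CON level. The log2 fold change of DNP against CON was 0.42 (SE 0.16, 95% interval 0.06 to 0.77), with an unadjusted p of 0.0261 and an adjusted p of 0.392.

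**Figure D2:**
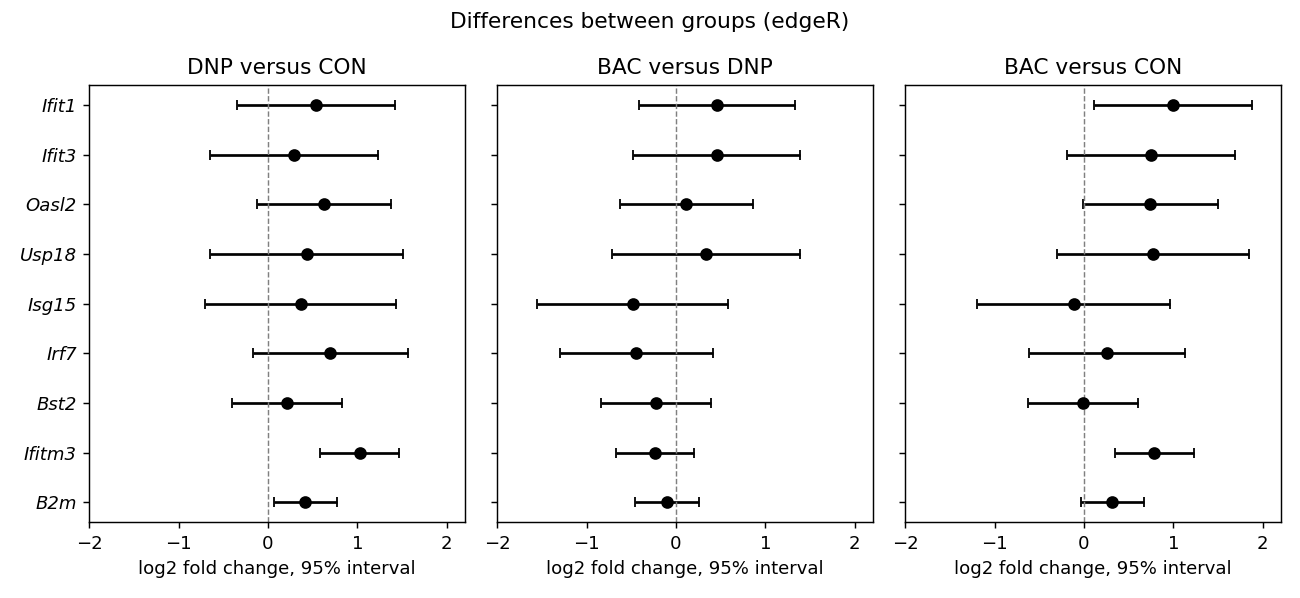
Log2 fold change (horizontal axis) of each gene (rows) in the 3 pairwise comparisons, as points with 95% intervals derived from edgeR's test. In DNP versus CON all 9 points lie above 0, but only the intervals of Ifitm3 (0.58 to 1.47) and B2m (0.06 to 0.77) exclude it, and in BAC versus DNP every interval includes 0.

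With baclofen, no member differed detectably from the untreated DNP mice. In BAC against DNP, 4 members had positive and 5 had negative log2 fold changes, with a median of -0.10 against -0.01 over all genes. None of the 9 had an unadjusted p under 0.05 or was free of overlap between the groups. Over all genes 2.37% had such a p (438 genes), 6.79% did not overlap, and 0% passed the adjusted threshold in edgeR, while DESeq2 called 7 genes and no member. The estimates ran from -0.48 for Isg15 (95% interval -1.55 to 0.59) to 0.46 for Ifit1 (-0.41 to 1.33). For Ifitm3 the log2 fold change was -0.24 (-0.67 to 0.20) and for B2m -0.10 (-0.46 to 0.25), so a change of 2-fold in either direction lies outside the interval of both. For Ifit1, Ifit3 and Usp18 a 2-fold higher level in BAC lies inside it, and for Isg15 and Irf7 a 2-fold lower one. Without DNP 1, BAC 1 and BAC 3, which leaves BAC 2 alone in its group, the estimates were -1.49 for Isg15, -0.81 for Irf7, -0.47 for Ifitm3, -0.40 for B2m, -0.38 for Oasl2, -0.11 for Ifit1, 0.11 for Bst2, 0.17 for Usp18 and 0.18 for Ifit3.

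In BAC against CON, 7 members had positive and 2 negative log2 fold changes, with a median of 0.74 against -0.02 over all genes. Ifitm3 was the 1 member without overlap in this comparison, at 11.6 ± 1.32 CPM in BAC (SD, n = 3 mice), with a log2 fold change of 0.79 (SE 0.19, unadjusted p = 0.00302, adjusted p = 0.628). Ifit1 had the largest estimate, 0.99 (SE 0.39, unadjusted p = 0.0320, adjusted p = 0.628), although its groups overlapped. In edgeR 0% of genes passed the adjusted threshold, 4.46% had an unadjusted p under 0.05 with a higher level in BAC, and 7.21% lay wholly above CON. At an unadjusted p under 0.05 there were 1436 genes in either direction. DESeq2 called 0.552% of genes (100), among them Ifitm3 at 0.78 with an adjusted p of 0.0455. This comparison and that of DNP share the same 3 CON libraries, so the values of the 2 comparisons are not independent.

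When the 6 DNP and BAC libraries were set together against CON, the log2 fold change of Ifitm3 was 0.91 (SE 0.17, unadjusted p = 6.20e-04, adjusted p = 0.295). B2m had 0.37 (unadjusted p = 0.0261, adjusted p = 0.368) and Oasl2 had 0.68 (unadjusted p = 0.0460, adjusted p = 0.415). All 9 estimates were positive, with a median of 0.52 against -0.01 over all genes. Ifitm3 was the 1 member whose 6 libraries all lay above CON, which held for 3.82% of all genes. Over all genes 6.42% had an unadjusted p under 0.05 in the higher direction (2190 genes in either direction) and 0% passed the adjusted threshold in edgeR, whereas DESeq2 called 2.05% (364 genes), Ifitm3 among them at 0.90 with an adjusted p of 6.44e-04.

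The 9 genes did not vary together in 1 block. Over the 9 libraries, the 36 pairs of members had a median Pearson r of 0.58 between their log2 CPM, compared with 0.02 for members against all other genes tested. The pair most alike was Oasl2 and B2m (r = 0.92), followed by Ifit1 and Usp18 (r = 0.89) and Oasl2 and Usp18 (r = 0.87). Bst2 stood apart, with a median r of 0.24 with the other members and r = -0.10 with Irf7, the 1 pair below 0. Irf7 (median r of 0.33) and Isg15 (0.40) were also weakly tied to the rest, and Oasl2 (0.74) most strongly. The points of these correlations share libraries, group differences and regional makeup, so they are given as descriptions.

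**Figure D3:**
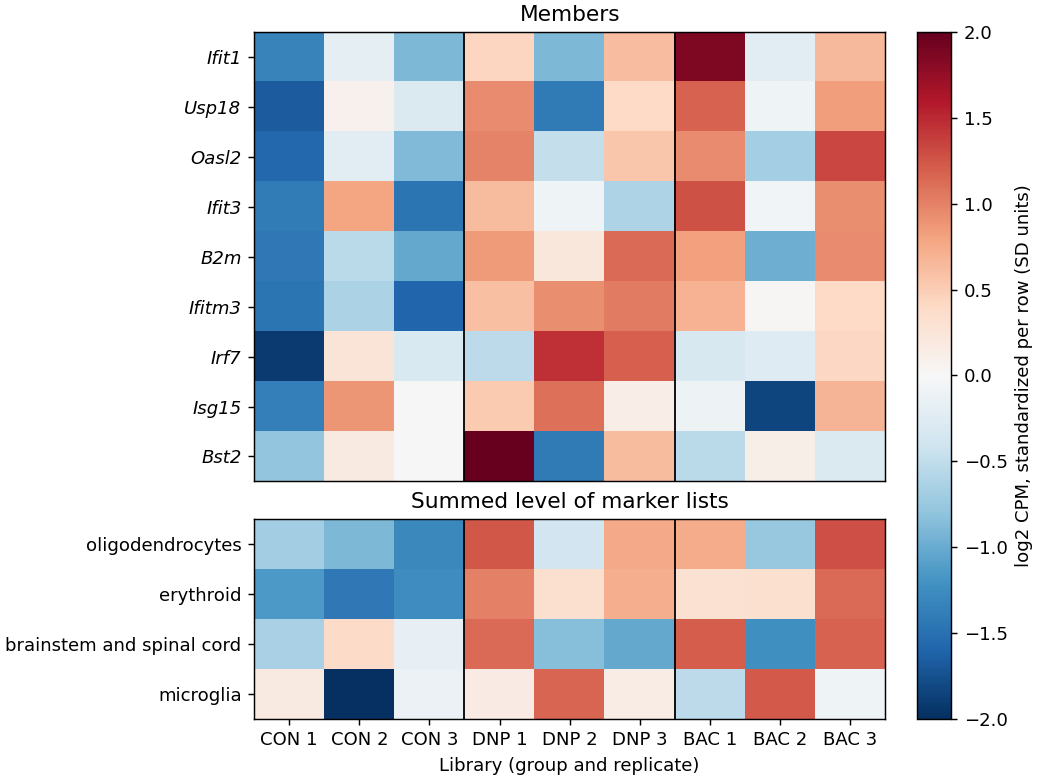
Level of the 9 genes (upper rows) and the summed level of 4 marker lists (lower rows) in the 9 libraries, as log2 CPM standardized per row. Colours give SD units and are capped at 2, and vertical lines separate the groups. Ifit1, Usp18, Oasl2 and B2m are high in DNP 1, DNP 3, BAC 1 and BAC 3, the libraries with the highest oligodendrocyte marker level, while Ifitm3 is also above every CON library in DNP 2 and BAC 2.

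The level of several members moved with that of myelin. The 6 oligodendrocyte markers, which include the myelin genes Mbp and Mog and were all detected in every library, summed to 2955, 2641 and 2111 CPM in CON, 8906, 3539 and 6723 in DNP, and 6704, 2850 and 9087 in BAC. DNP 1, DNP 3, BAC 1 and BAC 3 were high, as they were for Oasl2, and BAC 2 was within the CON range, as it was for Oasl2 and B2m. DNP 2 was above the CON range for the markers and for B2m, but within it for Oasl2. All 6 markers had a positive log2 fold change in DNP against CON with an unadjusted p under 0.05, and a median of 1.29. Over all genes 5.71% had such a p in the higher direction. With the oligodendrocyte score as a covariate, an alternative chosen after the data were seen, the DNP against CON estimate of Oasl2 was -0.06 in place of 0.63, that of Ifit1 -0.13 in place of 0.53, that of Ifit3 -0.15, that of Usp18 -0.39 and that of Bst2 -0.02. That of B2m was 0.16 in place of 0.42. The estimate of Ifitm3 was 0.95 (SE 0.26, unadjusted p = 0.00666, adjusted p = 0.372), and that of Irf7 was 0.90 (SE 0.51). With 3 mice per group, the marker level and the group can be told apart only in part.

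**Figure D4:**
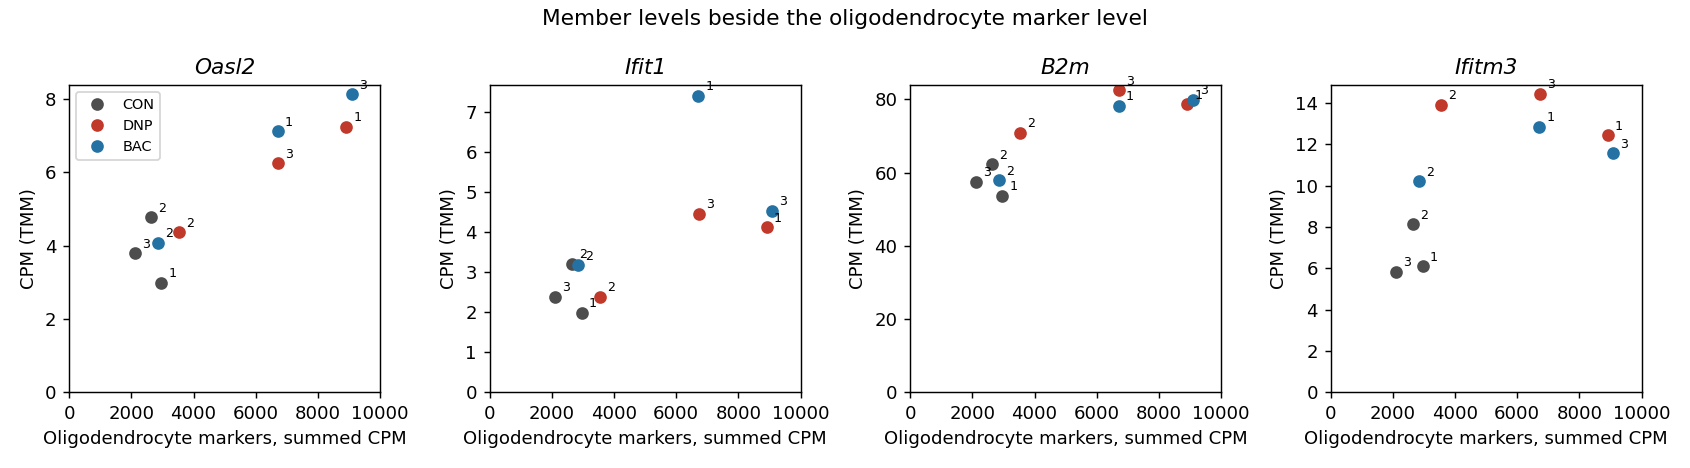
Level of Oasl2, Ifit1, B2m and Ifitm3 (vertical axes, CPM) against the summed level of 6 oligodendrocyte markers (horizontal axis, CPM) in the 9 libraries, coloured by group and labelled by replicate. Oasl2 and B2m are highest in the 4 libraries with the most marker RNA, whereas Ifitm3 in DNP 2 (13.9 CPM) and BAC 2 (10.2 CPM) is above all CON libraries at marker levels of 3539 and 2850 CPM.

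Other cell types were read for the same reason. The 5 erythroid markers (the globins Hba-a1, Hba-a2, Hbb-bs and Hbb-bt, and the haem enzyme Alas2) summed to 188 to 218 CPM in CON, 477 to 683 in DNP and 471 to 735 in BAC, without overlap between CON and the diabetic groups, as for Ifitm3. All 5 had positive log2 fold changes in DNP against CON, with a median of 1.55. The mitochondrial share of counts behaved likewise, at 4.34% to 5.36% in CON against 5.94% to 7.23% in the other libraries. The part of either in the result for Ifitm3 was not tested. The 9 monocyte and neutrophil markers summed to 1.19 to 3.09 CPM in CON, 1.31 to 15.6 in DNP and 2.90 to 8.43 in BAC. Plac8 and Ly6g were at 0 counts in all CON libraries and reached at most 7 and 3 counts in any other library. Ccr2, Ly6c2 and S100a8 of the same list were detected in every library. The 10 microglial markers, all detected, summed to 173 to 331 CPM in CON, 328 to 435 in DNP and 273 to 443 in BAC, and 9 of the 10 had positive estimates in DNP against CON. The 9 endothelial markers summed to 286 to 345 CPM in CON, 259 to 373 in DNP and 230 to 279 in BAC. The 9 lymphocyte markers summed to 1.64 to 16.0 CPM in CON, 2.25 to 17.4 in DNP and 1.26 to 19.7 in BAC. Cd4, the 1 marker of the list that could be tested, had 235, 9 and 40 counts in CON, 1, 245 and 155 in DNP, and 2, 272 and 2 in BAC. It made up most of the high sums, with 245 of 255 counts in DNP 2 and 272 of 285 in BAC 2. Cd3e of the same list did not follow Cd4, with 1, 6 and 2 counts in CON, 8, 0 and 0 in DNP, and 5, 0 and 5 in BAC. Ncr1 was at 0 in all libraries. The 7 meningeal fibroblast markers summed to 109 to 140 CPM in CON, 65.8 to 73.0 in DNP and 89.3 to 141 in BAC. All 7 had negative estimates in DNP against CON and positive ones in BAC against DNP, where 5 had an unadjusted p under 0.05. In that comparison 2.37% of all genes had such a p in either direction. The 5 ependymal markers summed to 15.0 to 20.1 CPM in CON, 15.4 to 40.5 in DNP and 12.0 to 39.3 in BAC. All 5 had positive estimates in DNP against CON, with a median of 0.77. None of the 5 was wholly above CON in DNP, as 9.59% of all genes were. The part of these cell types in the members' values was not tested.

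The estimates also depended on DNP 1, BAC 1 and BAC 3, the libraries with brainstem markers, which also had high oligodendrocyte marker sums. Without them, the log2 fold change of Ifitm3 in DNP against CON was 1.07 and that of B2m was 0.39, close to the values with all libraries. Those of Ifit3 and Usp18 were 0.05 and 0.10, in place of 0.29 and 0.43, and that of Bst2 was -0.04 in place of 0.22. In BAC against CON, where BAC 2 alone then stands for its group and is assumed to vary like the other groups, the estimate of Ifitm3 was 0.60, that of Ifit1 0.32 in place of 0.99, that of Oasl2 0.07 in place of 0.74 and that of B2m -0.01 in place of 0.32. Those of Ifit3 and Usp18 were 0.23 and 0.27 in place of 0.75 and 0.77, that of Irf7 was 0.13 in place of 0.26, and that of Isg15 was -1.11 in place of -0.12. In the joint comparison the estimates of Ifit1, Ifit3, Oasl2, Usp18 and B2m were 0.37, 0.14, 0.26, 0.18 and 0.19, in place of 0.76, 0.52, 0.68, 0.60 and 0.37. Whether region, myelin or the smaller number of libraries lies behind these moves was not tested.

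The genes outside the list that followed the members most closely were on none of the interferon pathway lists used here. Over the 9 libraries, the 10 genes with the highest Pearson r with the mean standardized level of the 9 members were Myl6 (0.96), Tmem106c, Tmco1, Mrps10 and Snx6 (0.95 each), Mmadhc and Dbi (0.95), Cd63-ps, Chmp5 and Atp6v1g1 (0.94). Myl6 encodes a myosin light chain, Chmp5 a subunit of the ESCRT-III membrane-scission complex, Snx6 a sorting nexin of the retromer pathway and Atp6v1g1 a subunit of the proton pump of lysosomes.

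For single members the closest genes were Chmp5 (r = 0.99), Tmem106c and Snx6 for Oasl2. For Ifitm3 they were Sec13 (0.98), a COPII coat and nuclear pore protein, Pigp and Pno1. For B2m they were Pcna (0.97), the sliding clamp of DNA replication, Cers2, the synthase of very-long-chain ceramides, and Gm10250. For Ifit1 they were Cd109, Med7 and Slc25a17, and for Usp18 Pex2, Mr1 and A330015K06Rik. Ifit3 was closest to Dhrs13, Nfatc2 and Hoga1, Irf7 to Gm5626, Zfp963 and Kdelc1, Isg15 to Gm12788, Esrra and Adam21, and Bst2 to Mocs2, P2rx7 and Rhno1. The lowest r among these was 0.89, and with 9 libraries and 18501 genes to choose from such values are a description of rank only.

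The interferons themselves were at the limit of detection. Of 21 interferon genes, Ifna2, Ifna6, Ifne, Ifnk and Ifnz reached at most 3 counts in any library and the others had 0 counts in all 9, so none could be tested. A count of 0 allows up to 3 counts per library, and counting intervals and this limit cover counting error only.

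The receptor chains were detected in every library, and none passed the adjusted threshold. Ifnar1 had 776, 732 and 640 counts in CON, 527, 710 and 733 in DNP, and 623, 686 and 508 in BAC, and its log2 fold change in DNP against CON was -0.14 (SE 0.18, adjusted p = 0.823). Ifnar2 had 0.05 (SE 0.14), Ifngr1 0.13 (SE 0.16), Ifngr2 -0.19 (SE 0.15) and Il10rb, a shared chain of the interferon lambda receptor, 0.08 (SE 0.21). Ifnlr1, the specific chain of that receptor, had 4, 4 and 5 counts in CON, 39, 11 and 3 in DNP, and 17, 6 and 12 in BAC. DNP 1, a library with brainstem markers, was the highest and DNP 3 the lowest, and the estimate of 2.03 (SE 0.88, unadjusted p = 0.0481, adjusted p = 0.442) rests on these few counts.

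The transducers downstream showed no shared direction. Of 13 genes of interferon signal transduction, 6 had positive and 7 negative estimates in DNP against CON, with a median of -0.06. Irf9 had a log2 fold change of 0.11 (SE 0.24). Stat2 had 366, 1208 and 443 counts in CON, 309, 305 and 416 in DNP, and 757, 297 and 443 in BAC, with an estimate of -1.0 (SE 0.51, adjusted p = 0.495). CON 2, the highest library for Stat2, also had the most cerebellar marker RNA (6074 CPM), whose part in this was not tested. The inhibitor Pias1 (-0.28, unadjusted p = 0.0337, adjusted p = 0.412) and the kinase Jak1 (-0.38, unadjusted p = 0.0484, adjusted p = 0.444) were the 2 with an unadjusted p under 0.05, both lower in DNP. Over all genes 5.46% had such a p in the lower direction. Among 17 tested genes of nucleic acid sensing the 3 with the smallest unadjusted p were Aim2, a cytosolic DNA sensor (0.72, unadjusted p = 0.0272), the adaptor Myd88 (0.28) and the Toll-like receptor chaperone Unc93b1 (0.35). Aim2 had 42, 40 and 43 counts in CON and 69, 75 and 64 in DNP, without overlap, and 31, 63 and 57 in BAC.

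**Figure D5:**
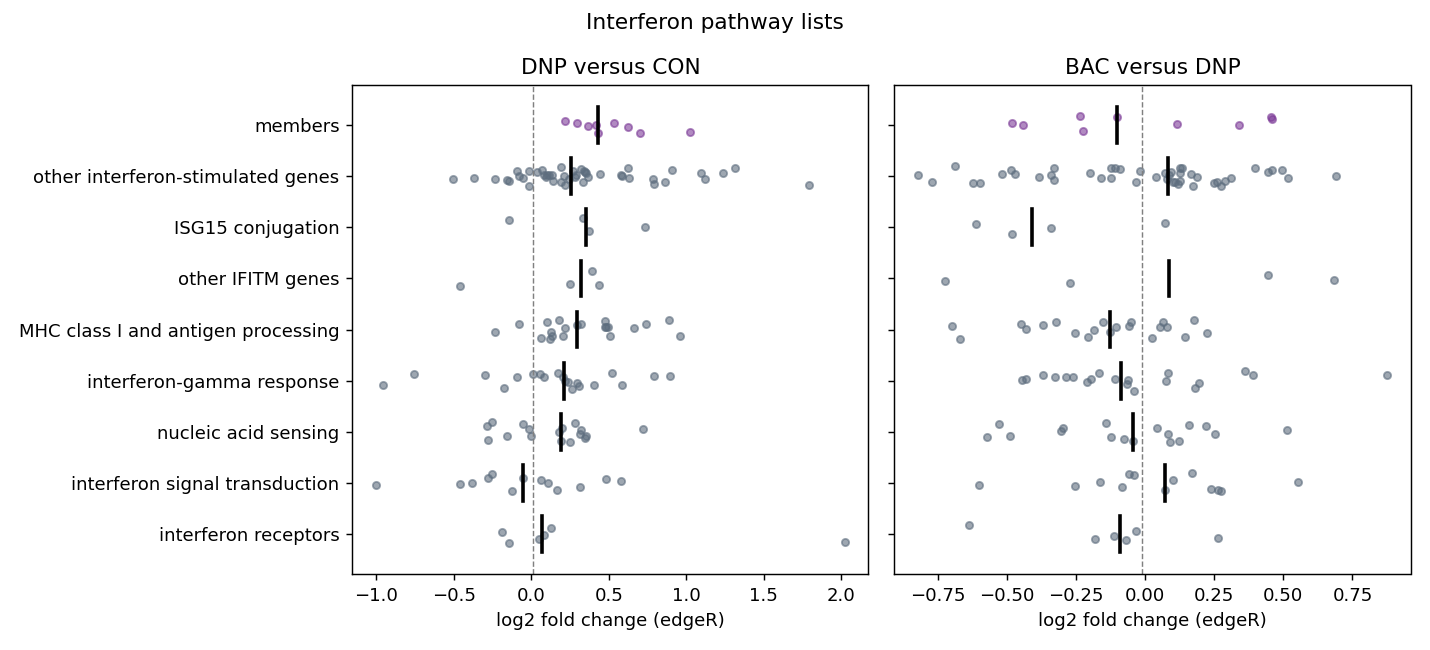
Log2 fold change (horizontal axis, edgeR) of each tested gene of the 9 interferon genes and 8 further lists (rows) in DNP versus CON and in BAC versus DNP. Points are genes, black bars are list medians and the dashed line is the median of all tested genes. In DNP versus CON the medians run from -0.06 for signal transduction to 0.43 for the 9 genes, and in BAC versus DNP the 9 genes have a median of -0.10.

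The other interferon-stimulated genes had mostly positive estimates in the diabetic groups. Of 46 tested, 36 had a positive and 10 a negative log2 fold change in DNP against CON, with a median of 0.26 against 0.01 for all genes, of which 51.4% were positive. Of the 46, 7 had an unadjusted p under 0.05 and 10 did not overlap, all in the higher direction, where 5.71% and 9.59% of all genes did so, and none passed the adjusted threshold. Ifi27 had 357, 311 and 357 counts in CON and 531, 461 and 547 in DNP, with 389, 319 and 538 in BAC (DNP against CON 0.58, SE 0.18, unadjusted p = 0.0107, adjusted p = 0.352). Xaf1, a pro-apoptotic partner of XIAP, had 70, 73 and 54 counts in CON and 101, 88 and 157 in DNP (0.79, adjusted p = 0.377). Mx1, a gene of the dynamin-like GTPase family, had 4, 3 and 2 counts in CON and 13, 14 and 5 in DNP (1.79, adjusted p = 0.378). In BAC against DNP the same list had 26 positive and 20 negative estimates, with a median of 0.08. The median r of these 46 genes with the mean of the members was 0.46, against 0.02 for all genes.

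The enzymes around Isg15 and the relatives of Ifitm3 gave few values of note. Ube2l6, the conjugating enzyme of Isg15, had 48, 40 and 53 counts in CON, 75, 74 and 88 in DNP and 54, 45 and 92 in BAC (DNP against CON 0.74, SE 0.27, unadjusted p = 0.0243, adjusted p = 0.386). Trim25, a ligase (0.33, adjusted p = 0.532), and the activating enzyme Uba7 (0.37, adjusted p = 0.689) were not past the threshold. Herc6, the other gene of this list of 4 and outside the rule for named genes, had a negative estimate (-0.14, adjusted p = 0.942). Its counts were 278, 89 and 288 in CON, 119, 205 and 276 in DNP, and 112, 174 and 103 in BAC. Among the relatives, the estimates of DNP against CON were 0.44 for Ifitm1 (adjusted p = 0.629), 0.25 for Ifitm2 (adjusted p = 0.703) and -0.46 for Ifitm10 (adjusted p = 0.824), in place of 1.03 for Ifitm3. Ifitm1 had 18, 27 and 26 counts in CON, 38, 35 and 24 in DNP, and 56, 52 and 50 in BAC, so all BAC libraries lay above all others (BAC against CON 1.12, unadjusted p = 0.00583, adjusted p = 0.628).

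Genes of class I antigen presentation mostly had estimates of the same sign as B2m. Of 21 genes of MHC class I and antigen processing, 19 had positive estimates in DNP against CON (median 0.30), 5 did not overlap and 1 had an unadjusted p under 0.05 in the higher direction (9.59% and 5.71% of all genes, so that the latter count is near the background), and in BAC against DNP 7 were positive and 14 negative (median -0.13). H2-Q7, a non-classical class I heavy chain, had 30, 40 and 25 counts in CON, 52, 68 and 68 in DNP and 32, 37 and 72 in BAC (DNP against CON 0.96, SE 0.33, adjusted p = 0.373). H2-T23 had an estimate of 0.74 (adjusted p = 0.452) and H2-T22 one of 0.30 (adjusted p = 0.461). The heavy chains H2-K1 (0.22, adjusted p = 0.691) and H2-D1 (-0.24, adjusted p = 0.898) differed in sign. The class I family shares sequence among its members, so reads may be split between them.

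Among 20 tested genes of the interferon gamma response, 15 had positive and 5 negative estimates in DNP against CON, with a median of 0.21. The class II chains H2-Ab1 (24, 24 and 27 counts in CON, 59, 38 and 43 in DNP, 34, 50 and 68 in BAC) and H2-Aa (16, 25 and 17 in CON, 43, 33 and 25 in DNP, 47, 39 and 49 in BAC) had estimates of 0.89 (adjusted p = 0.376) and 0.79 (adjusted p = 0.427). Ciita, the master coactivator of class II transcription, went the other way, with 28, 37 and 37 counts in CON, 16, 24 and 21 in DNP and 16, 21 and 22 in BAC (-0.76, unadjusted p = 0.0247, adjusted p = 0.387). All DNP and BAC libraries were below all CON libraries for Ciita, while for H2-Ab1 they were all above.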

How the data were processed

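RNA of 9 whole brains (3 CON, 3 DNP, 3 BAC, taken from the sample labels, 1 library per mouse) was read as poly(A) paired-end libraries without strand information. Per the labels and the study's methods, the authors filtered reads with fastp, aligned them to GRCm38 with HISAT2 2.1.0 and quantified genes with StringTie 1.3.3b. They deposited raw counts, used here for all tests, and FPKM values, whose gene length exceeds the merged exons for genes with several transcripts. How reads with several matches were counted is not given in the sources used here. Counts (13107382 to 16008129 per library) were tested with edgeR 4.0.16 (TMM, filterByExpr minimum count 10, quasi-likelihood test, 1 model over 9 libraries, Benjamini-Hochberg over 18501 genes, adjusted p threshold 0.05) in R 4.3.3. The common biological coefficient of variation was 36.5%. Alternatives were DESeq2 1.42.0, its size factors, no filter, limma 3.58.1 on log2(FPKM + 1) and log2(FPKM + 0.1), a replicate block, regional or oligodendrocyte covariates, and left-out libraries. Correlations used log2 CPM with a prior count of 2. Scripts were tested on simulated data. The members, gene lists and tests were chosen with earlier results of these data known. Named were all members, the 3 genes per pathway list with the smallest unadjusted p in DNP versus CON (none passed the adjusted threshold), the receptors, Stat2, Irf9, and the genes most alike. Some items that this rule or the marker lists cover are not reported here.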

Additional observations from a re-analysis of the deposited data

How the results depend on the processing

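Isg15, Usp18 and Irf7 rest on the fewest counts of the 9 genes, and edgeR called 0 genes in each of the 4 comparisons, with 3 mice per group. Calls by DESeq2 numbered 342 genes when DNP was compared with CON, 7 for BAC versus DNP, 100 for BAC versus CON and 364 for both diabetic groups together versus CON, and 1 member (Ifitm3) in each but BAC versus DNP. The cause was not tested. The log2 fold change of Ifitm3 stayed between 0.93 and 1.31 in DNP versus CON over the 19 alternatives. Leaving out 1 library in turn gave 0 to 1 genes called in DNP versus CON, in BAC versus CON and in the joint comparison, and 0 members. The replicate block gave 0 genes and 0 members in every comparison. Libraries of the same number did not deviate together in every pair (r from -0.58 for CON 1 with BAC 1 to 0.56 for DNP 2 with BAC 2, and 0.50 for DNP 1 with BAC 1), so the numbers were not taken to pair them.

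The following estimates changed sign, and no cause was tested. Leaving out 1 library in turn gave, in DNP versus CON, -0.026 to 0.42 for Bst2. In BAC versus DNP it gave -0.43 to 0.017 for Bst2, -0.083 to 0.36 for Oasl2 and -0.18 to 0.032 for B2m. In BAC versus CON it gave -0.0096 to 0.51 for Irf7, -0.48 to 0.23 for Isg15 and -0.084 to 0.042 for Bst2, and in the joint comparison -0.16 to 0.47 for Isg15 and -0.017 to 0.20 for Bst2. With the oligodendrocyte score as a covariate, DNP versus CON gave -0.13 for Ifit1, -0.15 for Ifit3, -0.060 for Oasl2, -0.021 for Bst2 and -0.39 for Usp18, and the joint comparison gave -0.22 for Isg15, -0.11 for Bst2 and -0.15 for Usp18. Without the 3 libraries with brainstem markers, Bst2 was -0.039 in DNP versus CON, Ifit1 -0.11, Oasl2 -0.38 and Bst2 0.11 in BAC versus DNP, Bst2 0.070 and B2m -0.0083 in BAC versus CON, and Isg15 -0.37 in the joint comparison. Both of these alternatives were chosen after seeing the data. With cerebellum and brainstem scores as covariates, Oasl2 was -0.24 in BAC versus DNP, and Isg15 0.28 and Bst2 0.0060 in BAC versus CON. In BAC versus CON, where its estimate was -0.01, Bst2 was 0.0017 without the filter on low counts, 0.041 and 0.054 in limma with pseudocounts of 1 and 0.1, and 0.0011 with only those groups in the fit.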

Other observations

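H2-Eb1, a class II chain outside the rule for named genes and chosen after its values were seen, had 22, 32 and 33 counts in CON, 35, 41 and 33 in DNP, and 67, 68 and 67 in BAC. All BAC libraries lay above all DNP and CON libraries, and the log2 fold change of BAC against DNP was 0.88 (SE 0.26, unadjusted p = 0.00828, adjusted p = 0.998 in edgeR). The genes most opposite to the mean of the 9 members over the 9 libraries were Ctnnd2 (r = -0.97), a delta catenin of neuronal synapses, Dcaf7 (-0.97), Flrt1 (-0.96), Jade2 (-0.96) and Fem1a (-0.96).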
